A study of Homo sapiens with 30 samples.

Results

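Constitutively open promoters are taken here as stretches of chromatin next to a gene start that the transposase of ATAC-seq could enter in every library of the study. Overlapping peaks of the 6 ATAC-seq peak lists were merged into 77315 regions. A region was a member if all 6 lists held a peak in it and its midpoint lay within 1000 bases of a gene start in the PRO-seq count table. In all, 9047 of the 77315 regions met both conditions, while 17321 met the first and 12274 the second. Members were thus chosen by the presence of ATAC-seq peaks and by position, and ATAC-seq values of the members are given below as a description without a test.

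All libraries come from G401, a rhabdoid tumour cell line that lacks the SWI/SNF subunit SMARCB1, and from 1 derivative of it, DTMYC. In this derivative CRISPR disrupted the cells' own MYC, and a lentivirus supplies MYC fused to a tag that the degrader dTAG47 recognises, so that dTAG47 removes the tagged MYC protein; the tag also carries an HA epitope. DTMYC cells received 500 nM dTAG47 or the solvent DMSO for 4 h before ChIP-seq against MYC (2 DMSO and 3 dTAG47 peak lists) and PRO-seq (2 against 2 libraries), and for 24 h before ATAC-seq (3 against 3) and RNA-seq (3 against 3). Parental G401 cells, which keep their own untagged MYC, received the same 24 h treatments for RNA-seq (3 against 3) and serve as the control for effects of the compound. Of the 30 samples, 3 control ChIP-seq samples with IgG were not analysed here. SMARCB1 had no promoter-proximal PRO-seq count in any library and 0 to 2 gene body counts. Labels do not say that replicates are separate cultures, so p-values measure the spread between these samples, which may be technical.

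At an active promoter a stretch without nucleosomes lets transcription factors and RNA polymerase II bind, and the polymerase often pauses shortly after the start before it enters the gene body. ATAC-seq reads such accessible stretches, PRO-seq counts engaged polymerases on the nascent RNA, and RNA-seq counts the mature product. MYC binds with its partner MAX, preferentially to the E-box CACGTG, and is found mainly at promoters that are already open, among them those of genes for ribosome production. SWI/SNF is a remodeler that moves or evicts nucleosomes and so helps keep chromatin accessible.

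Stretches of 8 members show what such promoters look like. The first 3 are among the 8 members with the highest ATAC-seq percentiles, the next pair have among the most promoter-proximal PRO-seq counts, RPL23A and PPRC1 carry strong MYC peaks, and MTRNR2L8 has the highest lowest percentile of its ATAC-seq scores and is shown as a contrast. Each is read 5′ to 3′ on the gene's strand from the GRCh37 (hg19) assembly. Except for PPRC1 each is 150 bases that end before the start site and lie outside annotated exons. Capitals mark matches, on either strand, to the ETS motif CCGGAAG, the CCAAT box GCCAAT, the GC box GGGCGG, the TATA motif TATAAA or the E-box.
EDEM3 (chr1:184724042-184724191, minus strand): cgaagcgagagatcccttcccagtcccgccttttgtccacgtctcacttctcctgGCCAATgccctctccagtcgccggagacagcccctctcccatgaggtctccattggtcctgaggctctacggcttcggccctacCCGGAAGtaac
TPR (chr1:186344458-186344607, minus strand): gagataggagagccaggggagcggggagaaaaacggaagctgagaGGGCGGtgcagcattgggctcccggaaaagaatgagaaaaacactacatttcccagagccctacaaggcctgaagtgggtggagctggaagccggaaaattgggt
PDCD10 (chr3:167452728-167452877, minus strand): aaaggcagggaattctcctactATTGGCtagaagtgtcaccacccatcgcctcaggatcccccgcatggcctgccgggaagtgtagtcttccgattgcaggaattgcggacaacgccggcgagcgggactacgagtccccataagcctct
RPSA (chr3:39448053-39448202, plus strand): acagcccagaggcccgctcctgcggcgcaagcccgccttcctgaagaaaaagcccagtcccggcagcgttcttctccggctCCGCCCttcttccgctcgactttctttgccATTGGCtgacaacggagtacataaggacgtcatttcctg
LUC7L2 (chr7:139024954-139025103, plus strand): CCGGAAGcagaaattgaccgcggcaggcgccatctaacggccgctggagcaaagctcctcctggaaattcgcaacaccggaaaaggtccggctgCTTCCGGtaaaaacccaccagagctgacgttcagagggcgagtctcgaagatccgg
RPL23A (chr17:27046849-27046998, plus strand): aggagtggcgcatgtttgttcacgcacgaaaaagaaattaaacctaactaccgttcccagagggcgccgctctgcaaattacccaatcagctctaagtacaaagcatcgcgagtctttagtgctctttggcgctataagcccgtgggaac
PPRC1 (chr10:103893307-103893486, plus strand): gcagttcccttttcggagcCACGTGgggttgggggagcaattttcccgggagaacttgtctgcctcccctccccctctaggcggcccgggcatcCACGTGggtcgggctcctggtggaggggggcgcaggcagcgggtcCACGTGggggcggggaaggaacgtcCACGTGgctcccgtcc
MTRNR2L8 (chr11:10530761-10530910, minus strand): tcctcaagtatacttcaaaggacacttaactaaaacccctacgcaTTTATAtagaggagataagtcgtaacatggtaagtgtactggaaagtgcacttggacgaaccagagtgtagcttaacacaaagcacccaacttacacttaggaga
The PPRC1 stretch was chosen after the region was seen: it lies in an intron, starts 520 bases after the start site, is 180 bases long and holds 4 of the 5 E-boxes of that region, and in it only E-boxes are in capitals. The EDEM3 stretch ends with an ETS motif and holds a CCAAT box, that of RPSA has a GC box and a CCAAT box, and that of LUC7L2 has 2 ETS motifs. RPL23A holds none of the motifs in its 150 bases. The MTRNR2L8 region differs from all other members in 1 respect: 63.5% of its 31-base words also occur in the mitochondrial chromosome, and no other member shares any such word.

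Members were wide and centred close to the start. Their merged width ran from 273 to 4009 bases with a median of 1225 (quartiles 1016 and 1470), against a median of 1054 for the 8274 regions that were open in all 6 libraries but lay farther from a start (called distal below). The midpoint lay downstream of the start in 61.5% of members, with a median of 62 bases downstream and quartiles of 82 bases upstream and 210 downstream. Within 100 bases of the start lay 34.0% of midpoints and within 500 bases 91.3%, and 8749 members (96.7%) covered their nearest start. In the GENCODE annotation the midpoint fell in an untranslated exon part in 3317 members (36.7%), in an intron in 2165 (23.9%), outside any transcript in 1726 (19.1%), in coding sequence in 1044 (11.5%) and in another exon in 795 (8.79%).

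The distance limit passed through a thin tail. B3GAT2 and KCND2 lay just inside, at 999 bases, and TP53TG3 and RAD51B just outside, at 1001 and 1004 bases. The requirement of 6 lists also set the number of members: 748 promoter regions were in exactly 5 lists, of which 378 were missing only from DMSO replicate 3 and 230 only from dTAG47 replicate 2, the shortest lists. The promoter of MYC itself was among those 748, with peaks in every list but dTAG47 replicate 3. Among members the lowest percentiles were those of GAS6, whose score of 13 in DMSO replicate 3 was at percentile 0.144 of that list, and TRAF3, at percentile 0.441.

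**Figure D1:**
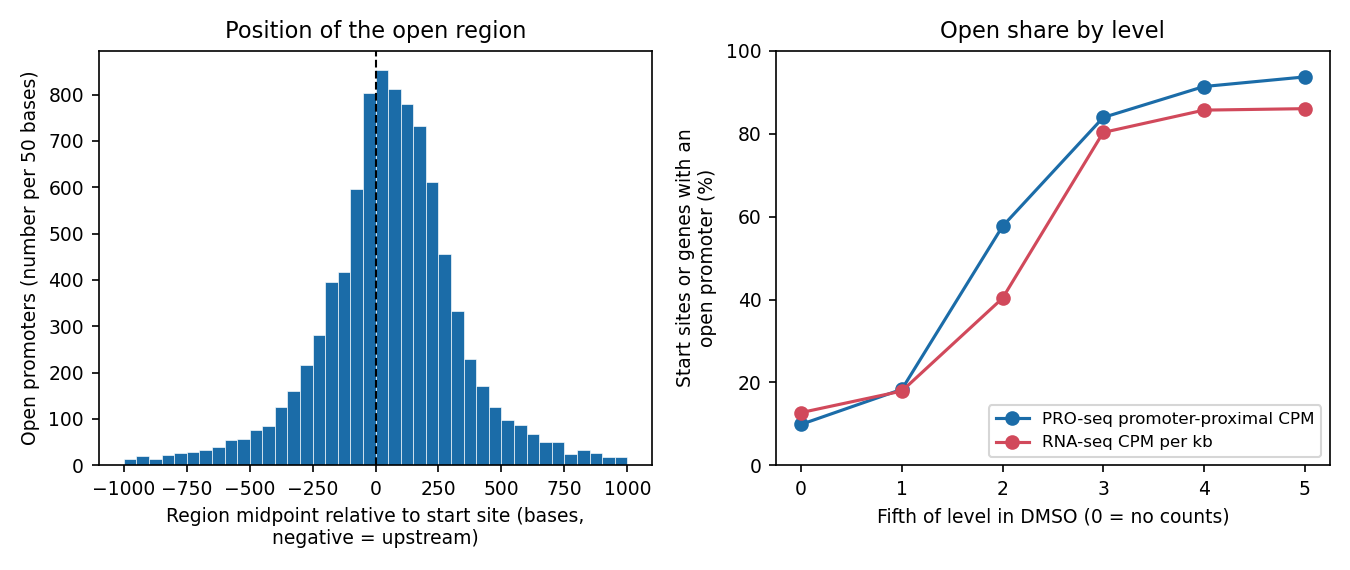
Left, number of constitutively open promoters per 50 bases by the position of the region's midpoint relative to the start site; the peak lies just downstream of 0. Right, percent of start sites (PRO-seq promoter-proximal CPM) or genes (RNA-seq CPM per kb) with such a promoter, in 5 equal groups by the level in DMSO, where 0 marks those without counts; the share rises from 9.88% to 93.7% and from 12.7% to 86.0%.

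Most members had 1 gene start. A single start lay within reach of 7857 members (86.8%), a divergent pair of 902 (9.97%) and a convergent or overlapping pair on both strands of 287 (3.17%). Divergent members, such as that of PDCD10, which acts in vascular integrity, and SERPINI1, the neuronal protease inhibitor neuroserpin, were wider, with a median of 1306.5 bases against 1210 for those with 1 start. MYC peaks in both DMSO lists were found at 14.6% of divergent members and at 7.93% of those with 1 start.

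By base composition the members were rich in G, C and CpG. In 201-base windows around the midpoint their median GC content was 69.2% (n = 9033 on the main chromosomes), against 54.7% at distal regions, 52.2% at all ATAC-seq regions and 64.7% around all 20470 PRO-seq starts. The ratio of observed to expected CpG was 0.855, 0.392, 0.274 and 0.781 in the same order. The GC box GGGCGG, the site of SP and KLF proteins, was present in 60.3% of member windows, in 25.4% of distal windows, in 17.8% of all ATAC-seq windows and in 50.1% of windows around all starts. Promoters with a peak in 1 to 5 lists (n = 3220) were nearer to members than distal regions were. Their median GC content was 65.7%, their CpG ratio 0.725, and 45.5% of their windows held the GC box. Both strands were searched for every motif, and a match describes letters only. Windows around starts are centred on the start itself, not on a region's midpoint.

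Other motifs split in the same way or the opposite one. ETS (CCGGAAG) was in 11.2% of member windows against 3.30% of distal and 2.70% of all ATAC-seq windows, and YY1 (ATGGCGGC) in 4.53% against 0.839% and 0.937%. The TATA motif TATAAA was in 1.41% of member windows but 5.46% of distal and 6.74% of all ATAC-seq windows, and the AP-1 motif TGAGTCA in 1.17% against 4.62% and 3.72%. Around all starts the shares were 10.7% for ETS, 3.65% for YY1, 6.24% for TATA and 2.39% for AP-1. These windows lie elsewhere than member windows, as 34.0% of member midpoints were within 100 bases of the start. The part of this placement in the differences was not tested. The CCAAT box GCCAAT, the site of NFY, was present in 10.3% of member windows. Distal windows held it in 7.0%, all ATAC-seq windows in 6.8% and windows around all starts in 12.15%. At promoters with a peak in 1 to 5 lists its share was 4.94%. Among members its share went from 6.91% in the lowest of 4 equal groups by ATAC-seq percentile to 14.1% in the highest. The E-box CACGTG was in 5.20% of member windows, 3.65% of distal windows and 5.93% of windows around all starts. At promoters with a peak in 1 to 5 lists it was in 3.60%.

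ATAC-seq scores were high at members in every library. The authors' score per peak, read within its own list, had a member median of 305, 225 and 119 in DMSO replicates 1, 2 and 3 and of 231, 155 and 260 in dTAG47 replicates 1, 2 and 3. As percentiles of the list these were 86.9, 82.7 and 76.0 in DMSO and 82.5, 77.5 and 85.0 in dTAG47. The treatments overlapped, and the order largely followed the length of the list, which ran from 28429 peaks in DMSO replicate 3 to 50983 in DMSO replicate 1. Member peaks made up from 18.0% of the longest list to 33.1% of the shortest. Median peak widths went the same way, at 1103, 956 and 830 bases in DMSO and 956, 844 and 964 in dTAG47.

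**Figure D2:**
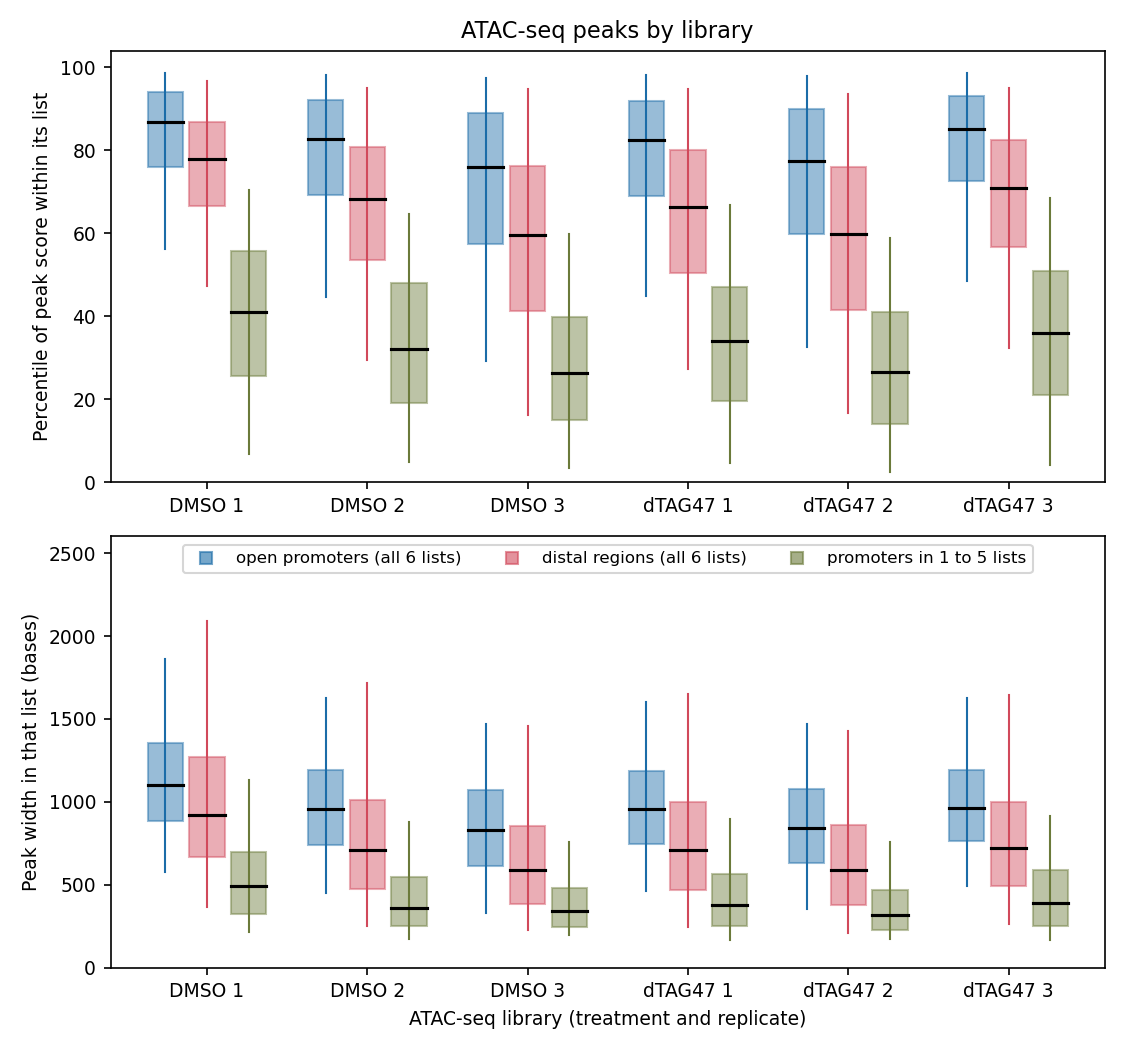
Percentile of the peak score within its list (top) and peak width in bases (bottom) for each ATAC-seq library, for open promoters, for distal regions open in all 6 libraries and for promoters with a peak in 1 to 5 lists; boxes span the quartiles, the black line is the median and whiskers reach the 5th and 95th percentiles. Open promoters have median percentiles of 76.0 to 86.9 and the widest median peaks in each library.

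The order of members by score was alike in all libraries. Spearman correlations of scores over the 9047 members were 0.835 to 0.918 between libraries, as a description over regions that share their libraries. The lowest of a member's 6 percentiles had a median of 69.7 (quartiles 49.6 and 85.6), and 6763 members (74.8%) were above the middle of every list, against 45.9% of distal regions. Scores followed transcription only weakly: Spearman correlations were 0.184 to 0.264 with promoter-proximal CPM (counts scaled to the library total) of the nearest gene and 0.025 to 0.110 with its RNA level per kb.

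The highest lowest percentile, 99.97, belonged to MTRNR2L8, a copy of mitochondrial ribosomal RNA sequence in the nucleus that can encode a humanin-like peptide. Its scores were 11317, 13968 and 11605 in DMSO and 14531, 12770 and 12719 in dTAG47, and its region was only 518 bases wide. PRO-seq gave it 4 to 6 promoter-proximal counts in each library, and its RNA level was at most 0.178 CPM in DTMYC cells. Next came ROCK1P1, a pseudogene near the end of chromosome 18 (chr18:106778-110786), which was also the widest member at 4009 bases and had no promoter-proximal PRO-seq count. Then came PDCD10 (scores 2646, 1933 and 1043 in DMSO and 1887, 1589 and 1896 in dTAG47), C21orf56 (2946, 1787 and 1870, then 2064, 1203 and 2003), SP4, a zinc finger factor, LOC729852, TPR, a component of the nuclear pore basket, and EDEM3, a mannosidase of the endoplasmic reticulum. In all 6 the DMSO and dTAG47 scores overlapped.

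After ROCK1P1 the widest members were those of HIVEP2 (3208 bases), NEK7 (3172), DUSP6 (2825) and SLC38A2 (2747). Over all members the median width was 1108, 1184, 1265 and 1316.5 bases in 4 equal groups from the lowest to the highest percentile, but single wide members differed. NEK7, a mitotic kinase, was at percentile 92.3 or above in every list. SLC38A2, a neutral amino acid transporter, had a lowest percentile of 47.3.

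For a view in which every list ranks the same regions, the 17321 regions shared by all 6 lists were ranked within each library. Which regions are shared still depends on the shortest lists. Members and distal regions make up this whole set, so higher mean ranks of members go with lower mean ranks of distal regions. In all 3 dTAG47 libraries 291 members (3.22%) ranked lower than in all 3 DMSO libraries, where 4.64% of the 17321 regions did so, and 622 members (6.88%) ranked higher, where 5.42% of all regions did so. For distal regions the shares were 6.20% lower and 3.83% higher. The median rank shift was 0.84 percentile points up for members and -0.96 for distal regions. These shares describe the lists that chose the members, and DMSO replicate 3, the shortest list, is 1 of the 3 DMSO libraries in every such count.

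These shares lay close together whether or not MYC was present. Members with MYC peaks in both DMSO lists ranked lower in 3.15% and higher in 7.18% of cases, those with a peak in 1 DMSO list in 3.22% and 7.59%, and those without in 3.22% and 6.65%. Genes of members that ranked lower, higher or with overlap passed the RNA-seq test as lower in 2.94%, 5.70% and 4.88% and as higher in 4.202%, 4.23% and 3.83%, with n of 238, 544 and 6911 genes. Over all tested genes 4.44% were lower and 4.27% higher, so these shares lie near the background.

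Genes with an open promoter made up most of the transcribed genes. Of 20582 PRO-seq entries 10222 had a member, 2776 had only promoter regions found in 1 to 5 lists, called partial below, and 7584 had none. The low-count filter of the tests kept 9449 of the 10222 entries for gene body counts, 8713 for promoter-proximal counts, and 8578 of the 9050 linked genes in the RNA-seq table (94.8%). For partial promoters the RNA-seq filter kept 69.8% of genes and for genes without a region 47.2%. Read from the other side, 70.4% of tested genes that could be linked had a member and 14.9% (1819) had no ATAC-seq peak near any start.

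Promoter-proximal PRO-seq levels of genes with a member had medians of 40.5 and 40.8 CPM in DMSO and 40.5 and 39.6 CPM in dTAG47. Partial promoters had medians of 0.633 and 1.22 CPM in DMSO and 0.827 and 1.44 CPM in dTAG47. Gene body levels per kb of gene span were 1.54 and 1.51 CPM in DMSO and 1.54 and 1.51 CPM in dTAG47 at members, with treated and control medians interleaved. The ratio of promoter-proximal CPM to gene body CPM per kb is a measure of polymerase held near the start. It was 29.1 and 29.7 in DMSO and 28.9 and 29.9 in dTAG47 at members, and 15.2 to 16.3 at partial promoters. It used genes with enough gene body counts and a promoter-proximal count. Genes without promoter-proximal counts, 7.21 to 7.77% at members and 40.2 to 42.4% at partial promoters, are thus left out. Median RNA levels per kb of gene length in DTMYC cells were 7.999, 8.11 and 8.03 CPM in DMSO and 8.10, 8.19 and 8.23 CPM in dTAG47.

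The share of start sites with a member climbed with transcription. It was 9.88% at starts without a promoter-proximal count and, in 5 equal groups of those with counts, 18.3%, 57.7%, 83.9%, 91.4% and 93.7%. In 5 equal groups by the RNA level it was 17.9%, 40.3%, 80.3%, 85.7% and 86.0%, after 12.7% for genes without counts. Within the members, the lowest of 4 equal groups by ATAC-seq percentile had a median of 22.3 promoter-proximal CPM and the following groups 38.99, 48.3 and 52.9 CPM. RNA levels did not follow this order, with 6.39, 8.68, 8.98 and 7.84 CPM per kb.

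Extremes on both sides stood out. The nearest genes with the most promoter-proximal CPM were LOC644714 (22894 and 20963 CPM in DMSO), HCG11 (9237 and 7833), RPSA, a protein of the small ribosomal subunit (7676 and 8710), and LUC7L2, a splicing factor (6988 and 6255). In gene bodies LOC644714 had only 1.68 and 2.01 CPM in DMSO, HCG11 16.3 and 17.6 CPM and RPSA 196 and 170 CPM. Whether the promoter-proximal counts come from transcription of the named genes was not tested. RNA-seq listed RPSA at 2020, 1774 and 2082 CPM in DMSO but LUC7L2 at no more than 0.091 CPM, although PRO-seq gave it 340 and 364 gene body CPM in DMSO. At the other end 417 members (4.61%) had genes that all failed the RNA-seq filter. Off chromosome Y these were 416, of which 84 (20.2%) had promoter-proximal counts in both DMSO libraries at the nearest gene. PGK1, a glycolytic enzyme, was among those with the highest percentiles (98.5 in its lowest list). PGK1 is listed with 0 PRO-seq counts in all 4 libraries and at most 0.071 RNA CPM. Nearly every cell uses this enzyme, so its listed values, and the RNA values of LUC7L2, cannot be read as absent transcription; how the counting treated these 2 genes was not tested.

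Some strongly expressed genes had no member. FLNC, an actin crosslinker of muscle (1252 ± 49.7 CPM, SD, n = 3, in DTMYC DMSO), IPO5, a nuclear import receptor (923 ± 22.9), COL3A1, a fibrillar collagen (668 ± 15.6), and CKB, creatine kinase (608 ± 31.9), had no ATAC-seq peak within 1000 bases of their listed starts. IPO5 had 0 promoter-proximal counts in both DMSO libraries beside 6880 and 5528 gene body counts, and CKB had 217 and 311 promoter-proximal counts.

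Lists of cell type genes showed what the open set leaves out. None of 15 hepatocyte markers and none of 16 kidney epithelial markers had a member, although 6 of the kidney and 8 of 16 neuronal markers had a partial promoter region. The keratins KRT8 and KRT18 of the kidney list had 3885 to 4944 and 1214 to 1605 CPM in DTMYC cells, and no other kidney marker found in the RNA-seq table was above 1.10 CPM. Of the other lists, 2 of 19 haematopoietic and 2 of 16 neuronal markers had a member (CD8A and CSF1R, GAD1 and SYT1). PTPRC and CD3E, which define leukocytes and T cells, had 0 counts in every DTMYC library. Of 35 HOX genes 7 had a member. By contrast, 79 of 85 genes of ribosome biogenesis, 38 of 42 of the proteasome, 56 of 61 of the respiratory chain and 42 of 46 of DNA replication did.

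MYC peaks were found at 26.1% of members in DMSO list 1 (95% exact binomial interval 25.2 to 27.0%) and at 10.7% in DMSO list 3 (10.0 to 11.3%). After dTAG47 the shares were 2.69% (2.36 to 3.04%), 0% and 1.09% (0.890 to 1.33%) in lists 1, 2 and 3. List 2 held only 7 peaks in the genome, none at a member, which allows a share of up to 0.0332% by 3 counts. Every dTAG47 share was below both DMSO shares, with lists of 4010 and 1519 peaks in DMSO and 408, 7 and 193 in dTAG47, so the shares can move with list length. Intervals and limits cover counting error only. At distal regions the DMSO shares were 8.11% and 2.74%, and at partial promoters 4.59% and 1.83%.

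**Figure D3:**
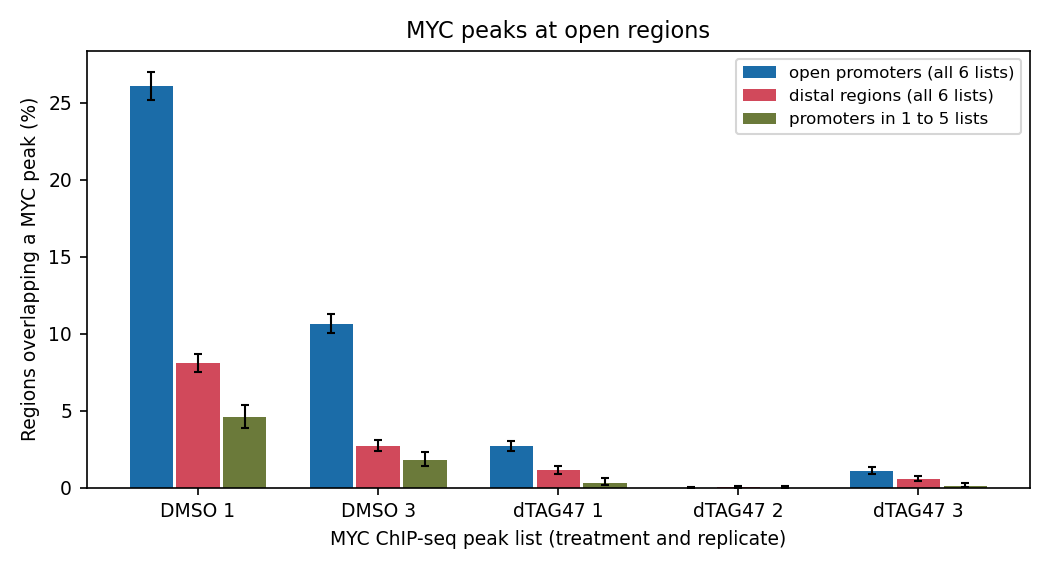
Percent of regions that overlap a MYC ChIP-seq peak in each of 5 peak lists, for open promoters, distal regions open in all 6 libraries and promoters with a peak in 1 to 5 lists; bars start at 0 and error bars are 95% exact binomial intervals. Open promoters have 26.1% and 10.7% in the DMSO lists and at most 2.69% in the dTAG47 lists.

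Of the MYC peaks themselves most lay in members where the list was long: 60.5% and 64.6% of the DMSO lists and 59.8%, 0% and 51.3% of the dTAG47 lists. Both DMSO lists had a peak at 794 members (8.78%), and 1 of them at another 1738. Of the 794, 566 had no peak in any dTAG47 list, 200 (25.2%) kept one in list 1, 87 (10.96%) in list 3, and 59 in both. E-boxes were in 13.9% of midpoint windows of the 794, in 7.95% with a peak in 1 list and in 3.41% of members without MYC. Of the 59 that kept both, 11.9% held one. MYC in both DMSO lists was also more frequent with higher ATAC-seq percentiles, from 5.35% in the lowest of 4 equal groups through 7.69% and 10.5% to 11.5% in the highest.

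The strongest MYC peaks, by the lower of both DMSO scores, marked SNHG15, a host gene of a small nucleolar RNA (chr7:45025817-45026748). Its scores were 954 and 549 in DMSO and 259, 0 and 235 in dTAG47. Then came BRWD1, a bromodomain gene, whose scores of 389 and 401 fell to no peak in any dTAG47 list. SNX5, a sorting nexin, had 827 and 384, and after dTAG47 345, 0 and 254. RPL23A, a protein of the large ribosomal subunit, had 461 and 340, then 68, 0 and 79. The remaining ones were the divergent pair CCDC47 and DDX42 (658 and 330, then 391, 0 and 172), PPRC1, a coactivator of mitochondrial genes (891 and 326, then 158, 0 and 100), LOC100630918 beside MAT2A, a methionine adenosyltransferase (481 and 311, then 91, 0 and 112), and LOC388796 (628 and 306, then 193, 0 and 55). Of these 8, BRWD1 alone kept no dTAG47 peak. Strong MYC peaks did not need strong ATAC-seq peaks: LOC388796 had ATAC-seq scores of 43 to 99 and a lowest percentile of 32.9.

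Gene body PRO-seq levels of these genes are given as CPM of all gene body counts. SNHG15 had 121 and 111 CPM in DMSO and 81.9 and 69.6 CPM in dTAG47. At SNX5 the values were 404 and 400 CPM, then 328 and 314 CPM. MAT2A had 207 and 190 CPM, then 153 and 136 CPM. The dTAG47 values of these 3 genes lay below both DMSO values. PPRC1 overlapped, with 214 and 157 CPM and then 164 and 133 CPM, and BRWD1 had 190 and 227 CPM and then 209 and 234 CPM. None of the 5 passed the test after adjustment, with edgeR log2 fold changes of -0.60 ± 0.12 (SE) for SNHG15, -0.30 ± 0.08 for SNX5 and -0.44 ± 0.11 for MAT2A.

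Across all genes, dTAG47 changed the RNA of some member genes in DTMYC cells at an adjusted p under 0.05 (edgeR's quasi-likelihood test with Benjamini-Hochberg adjustment over 13401 genes). Higher were 320 of 8578 (3.73%), where 4.27% of all tested genes were higher, and lower were 427 (4.98%), where 4.44% of all were lower. Both shares are near the background. The median log2 fold change was 0.02 for members and 0.03 for all genes.

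Split by MYC peaks, the counts leaned to different sides. Of 849 genes with MYC in both DMSO lists at the promoter 139 were lower (16.4%) and 7 higher, with a median log2 fold change of -0.16. Of 1790 with a peak in 1 list 155 were lower (8.66%) and 12 higher, with a median of -0.05. Of 5939 without a peak 133 were lower (2.24%) and 301 higher (5.07%), with a median of 0.07. The difference between the groups was not tested. Genes with MYC in both lists were also expressed more, with a median of 81.2 CPM against 60.9 and 35.1 CPM. This level is the mean over all 12 RNA-seq libraries, of DTMYC and parental cells and both treatments. In 5 equal groups by the same mean the share lower in DTMYC cells was 3.64%, 15.2%, 14.6%, 20% and 17.4% with MYC in both lists. Without MYC it was 1.49% to 2.82%.

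Parental DMSO replicate 3 stood apart from the other 2 parental DMSO libraries: its median RNA level at members was 7.53 CPM per kb, against 6.43 and 6.35. All 12 libraries enter 1 fit. With this library left out, the calls in DTMYC cells were 1154 higher and 1674 lower member genes (13.4% and 19.5%), against 12.7% higher and 16.6% lower over all genes. With MYC in both lists these were 31 and 431 of 851 (50.6% lower), with MYC in 1 list 108 and 545 (30.4% lower), and without MYC 1015 and 698 (17.04% higher, 11.7% lower). The order of the groups by share of lower genes was as with all libraries. Leaving out any 1 DTMYC library lowered the counts, to between 81 and 143 higher and between 110 and 275 lower member genes. These were 0.941 to 1.66% higher, where 1.20 to 1.96% of all genes were, and 1.28 to 3.19% lower, where 1.22 to 2.85% of all were.

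**Figure D4:**
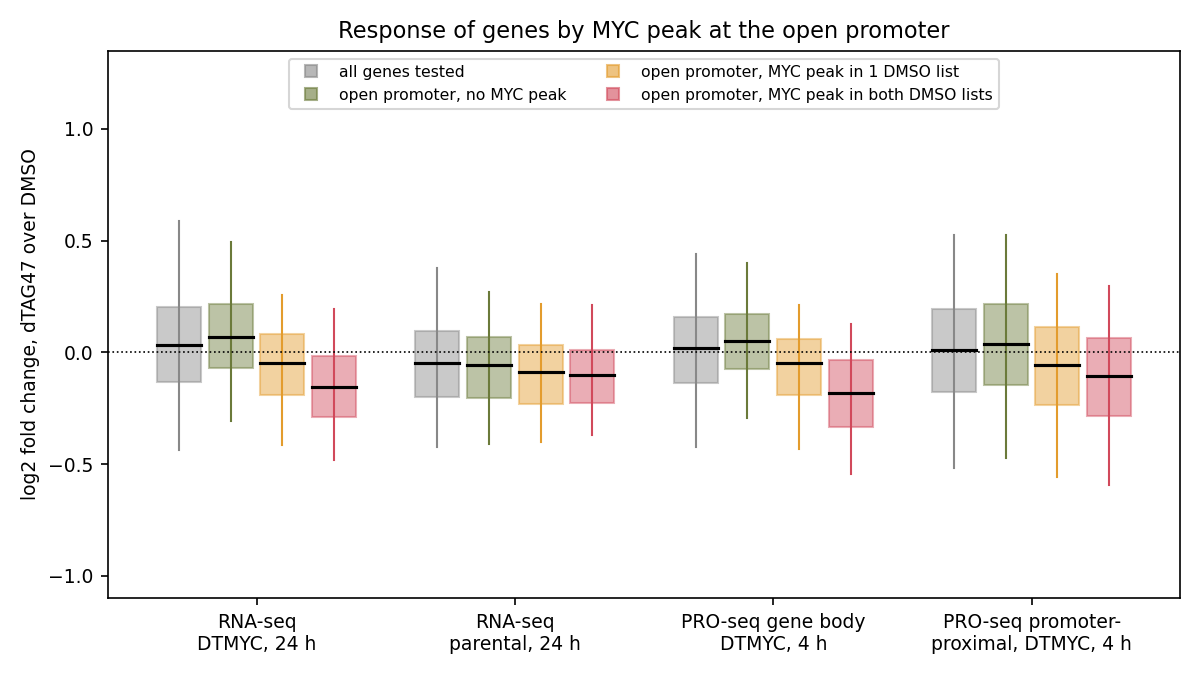
log2 fold change of dTAG47 over DMSO for all tested genes and for genes with an open promoter and no MYC peak, a MYC peak in 1 DMSO list or in both, in RNA-seq of DTMYC and parental cells and in PRO-seq gene body and promoter-proximal counts of DTMYC cells; boxes span the quartiles, black lines are medians and whiskers reach the 5th and 95th percentiles. Medians with MYC in both lists are -0.16, -0.10, -0.18 and -0.10.

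In parental cells, which lack the tagged MYC, 10 member genes were higher (0.117%), where 0.104% of all genes were, and 2 lower (0.0233%), where 0.0224% of all were. Medians were -0.07 for all members, and -0.10, -0.09 and -0.06 with MYC in both lists, in 1 and in none. At an unadjusted p under 0.05 there were 544 higher and 901 lower member genes, and 931 and 1143 of all 13401 genes. Without parental DMSO replicate 3 the counts rose to 896 higher and 1052 lower (10.4% and 12.2%, where 9.17% and 10.9% of all genes were called), and with MYC in both lists to 80 higher and 143 lower (16.8%). Leaving out parental DMSO replicate 2 instead gave 130 higher and 145 lower (1.51% and 1.685%, where 1.47% and 1.14% of all genes were called). Leaving out any other library gave at most 2 higher and 0 lower, where at most 0.03% of all genes were higher. The parental count thus rests on these libraries, and without parental DMSO replicate 3 the medians became -0.04 with MYC in both lists, -0.03 with MYC in 1 and -0.01 without.

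The test of the difference between the responses of DTMYC and parental cells called 40 member genes with a higher response in DTMYC (0.466%), where 0.597% of all genes had one, and 52 with a lower one (0.606%), where 0.59% of all did. With MYC in both lists 2 were higher and 16 lower of 849, with MYC in 1 list 2 and 18 of 1790, and without MYC 36 and 18 of 5939. Leaving out parental DMSO replicate 3 gave 740 higher and 1003 lower (8.61% and 11.7%, where 8.30% and 9.58% of all genes were called), of which 29 and 236 had MYC in both lists. Leaving out parental DMSO replicate 2 gave 175 higher and 222 lower (2.03% and 2.58%, where 1.78% and 2.28% of all genes were called). Leaving out any library of DTMYC cells gave at most 5 higher and 8 lower (0.0581% and 0.0929%, where 0.0809% and 0.125% of all were).

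Among genes that rose in DTMYC cells, APOLD1 went from 5.19, 5.67 and 5.11 CPM in DMSO to 11.5, 10.9 and 10.2 CPM in dTAG47 (log2 fold change 1.03 ± 0.16, SE; edgeR adjusted p = 0.00321). FAM114A1 went from 9.98, 10.4 and 10.8 CPM to 20.7, 21.8 and 20.2 CPM (1.00 ± 0.10; edgeR adjusted p = 2.78e-04). In each of these genes the 3 dTAG47 libraries lay above the 3 DMSO libraries, which the rule for naming genes required. KIAA0319 rose by 1.01 ± 0.12 on the log2 scale, CYS1, a protein of the primary cilium, by 0.96 ± 0.15, THBS1, the secreted matrix protein thrombospondin, by 0.99 ± 0.20 and BMF, a promoter of apoptosis, by 0.92 ± 0.21. The last 3 were at low levels in DTMYC cells, from 0.889 to 5.38 CPM in any library. They passed the limit of 5 CPM on average only through parental cells, where THBS1 had 48.5 to 88.9 CPM. Calls for THBS1 and BMF were lost in 3 of 17 alternative fits. The gene body of THBS1 in PRO-seq had a log2 fold change of -0.59 ± 0.57 (SE). Of the 6, APOLD1 alone had MYC in both DMSO lists and the other 5 had no MYC peak.

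Among genes that fell, FABP5, a fatty acid carrier, went from 19.3, 16.5 and 16.8 CPM to 8.87, 9.64 and 9.12 CPM (log2 fold change -0.93 ± 0.09, SE; edgeR adjusted p = 3.97e-04). YDJC went from 99.8, 87.1 and 106 CPM to 57.5, 52.6 and 54.0 CPM (-0.84 ± 0.15). No dTAG47 library reached the DMSO range in either gene, which the naming rule also required. KLF15, a zinc finger factor, fell by 0.95 on the log2 scale and SLC16A10, a transporter of aromatic amino acids, by 0.88. KLF13 had 1.00, 0.820 and 1.55 CPM in DMSO and 0.587, 0.595 and 0.639 CPM in dTAG47, and its call was lost in 11 of 17 alternative fits. YDJC had MYC in both DMSO lists, FABP5 and SLC16A10 in 1, and KLF15 and KLF13 in none.

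In parental cells the called member genes included METAP1D, a mitochondrial methionine aminopeptidase, which went from 21.97, 22.9 and 22.8 CPM to 35.9, 35.5 and 34.2 CPM (log2 fold change 0.64 ± 0.07, SE; edgeR adjusted p = 0.00828). SHISA3 rose by 0.66 ± 0.08, EP300, a histone acetyltransferase, by 0.54 ± 0.08, and DUSP6, a phosphatase of ERK and 1 of the widest members, by 0.51 ± 0.08. CCNG1, a cyclin, fell by 0.60 and FDFT1, squalene synthase, fell by 0.50 on the log2 scale. METAP1D rose in DTMYC cells too, by 0.36 ± 0.07 (edgeR adjusted p = 0.00842). Calls for METAP1D and SHISA3 were lost in 4 of 17 alternative fits, those for EP300 and CCNG1 in 13.

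Genes whose response differed between the cell lines included PPARGC1B, a coactivator of oxidative metabolism, with MYC in both lists. In DTMYC cells it went from 98.8, 95.9 and 104 CPM to 66.3, 66.9 and 67.1 CPM, and the difference of responses was -0.85 ± 0.10 on the log2 scale (edgeR adjusted p = 0.00523). USP36, a nucleolar deubiquitinase, also with MYC in both lists, went from 150, 141 and 151 CPM to 105, 103 and 100.5 CPM, with a difference of -0.80 ± 0.11. In both genes the 2 treatments were apart in DTMYC cells, but genes were named only if groups did not overlap. AKAP1, an anchor of protein kinase A on mitochondria, had a difference of -0.80 ± 0.10, and TM7SF2, a sterol reductase, one of 1.07 ± 0.14. Called differences also included NR1D1, a nuclear receptor of the circadian clock (-0.91 ± 0.19), and FOSL1, an AP-1 subunit (-0.85 ± 0.18). Both of these calls were lost in 12 of 16 alternative fits, that for PPARGC1B in 0.

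After 4 h, PRO-seq called no member gene at an adjusted p under 0.05, nor any gene, so the background is 0% in both directions for gene body and for promoter-proximal counts (edgeR's quasi-likelihood test with Benjamini-Hochberg adjustment, 2 against 2 libraries). At an unadjusted p under 0.05 the gene body test held 412 higher and 671 lower member genes of 9449, and 505 and 793 of all 13397. DESeq2 with adjustment called 4 higher and 54 lower member genes, of 6 and 62 over all genes. An edgeR fit with replicate number as a block called 1726 higher and 1760 lower member genes (18.3% and 18.6%). In that fit 16.6% and 15.9% of all genes were called, and no label states that equal numbers are pairs. For promoter-proximal counts the numbers at an unadjusted p under 0.05 were 207 and 335 of 8713 member genes, and 277 and 384 of all 10226. DESeq2 called 1 higher and 1 lower, both member genes. The block fit called 76 and 142 member genes (0.872% and 1.63%), where 0.909% and 1.65% of all were called.

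Gene body medians of the log2 fold change were -0.18 with MYC in both lists, -0.05 with MYC in 1 and 0.05 without, over 939, 2001 and 6509 genes. Of the 939 genes, 493 (52.5%) had both dTAG47 values below both DMSO values and 55 (5.86%) above, where 19.3% of all tested genes were lower and 20.6% higher. All members together were lower in 21.6% and higher in 21.8%. Promoter-proximal medians were -0.10, -0.05 and 0.04, with non-overlapping lower values in 32.3% of 934 genes with MYC in both lists against 17.7% of all, and higher values in 10.3% against 17.8%. For all members these shares were 18.4% lower and 17.2% higher.

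Genes that passed the RNA-seq test at 24 h had mostly shifted the same way in PRO-seq at 4 h. Of 424 lower member genes with a gene body value 343 (80.9%) had both dTAG47 values below both DMSO values and 0 above, with a median of -0.36. Of 320 higher genes 201 (62.8%) were above and 4 below, with a median of 0.27. Promoter-proximal counts separated less, at 46.7% of 407 lower genes and 30.6% of 278 higher genes, with 4.18% and 7.19% the opposite way. Over all tested genes 19.3% were below and 20.6% above in gene bodies, and 17.7% and 17.8% near the start.

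Some genes with the smallest unadjusted p in PRO-seq, picked after their values were seen, give the scale. The gene body of LAMC3, a laminin chain with MYC in both lists, had 184 and 179 normalised CPM in DMSO and 100.01 and 98.03 in dTAG47. ECE2, an endothelin-converting enzyme with MYC in both lists, had 59.9 and 53.4, then 30.9 and 32.3. STX5, a Golgi syntaxin without MYC, had 49.6 and 53.2, then 82.4 and 81.1. Treatments did not overlap at these genes, and their edgeR adjusted p-values were 0.274, 0.389 and 0.389. Near the start, LGALS1, galectin-1, had 251 and 272 promoter-proximal CPM in DMSO and 427 and 685 in dTAG47, and TOP1MT, the mitochondrial topoisomerase, had 68.3 and 69.9, then 30.6 and 28.8. LGALS1 RNA rose by 0.73 ± 0.09 and TOP1MT RNA fell by 0.59 on the log2 scale, both called in RNA-seq.

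Within the 794 members with MYC in both DMSO lists, the response was ordered by the MYC score. In 4 equal groups by the lower DMSO score (medians 28, 45, 71 and 134) the gene body median was -0.12, -0.16, -0.22 and -0.26 and the RNA median -0.10, -0.15, -0.16 and -0.18. The share of lower RNA-seq calls, 11.9%, 16.2%, 20.1% and 16.9%, was highest in the third group. In parental cells the medians of these groups were -0.09, -0.11, -0.11 and -0.10. Members that kept MYC peaks in dTAG47 lists 1 and 3 had a gene body median of -0.27, those that kept 1 of them -0.25 and those that kept none -0.15. Their median scores in DMSO were 140, 80 and 49.5 in the same order, so retention moved with peak height, and its part in the result was not tested.

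The gene lists put names to the members. For ribosome biogenesis, 79 of 85 genes had a member and 40 of these (50.6%) had MYC in both lists. Of 77 tested, 36 fell and 0 rose in DTMYC RNA, with a median of -0.37 and a gene body median of -0.40, beside 0.03 and 0.02 over all genes. In parental cells the list's median was -0.15, beside -0.05 over all genes. Without parental DMSO replicate 3 the DTMYC counts were 73 lower and 0 higher, and the parental ones 15 lower and 4 higher. RRP1B, a nucleolar processing factor, went from 379, 395 and 393 CPM to 267, 272 and 262 CPM (-0.54 ± 0.06; edgeR adjusted p = 0.00107), and NOP56, a core protein of box C/D small nucleolar ribonucleoproteins, from 338, 299.8 and 347 CPM to 218, 227 and 220 CPM (-0.57 ± 0.08). In these genes all dTAG47 values were below all DMSO values, while the parental values of NOP56 were 252, 263 and 228 CPM in DMSO and 243, 257 and 238 CPM in dTAG47. IMP4, NOP16 and NOL6, which act in rRNA processing, fell by 0.67, 0.64 and 0.57 on the log2 scale.

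A list of textbook MYC targets, which shares NOP56 and others with the first, had 44 of 52 genes with a member and 24 with MYC in both lists, and 22 of 43 tested fell while 0 rose (median -0.33). Without parental DMSO replicate 3 these became 40 lower and 0 higher in DTMYC, and 10 lower and 1 higher in parental cells. GRPEL1, a mitochondrial co-chaperone, went from 120.4, 117 and 122 CPM to 79.5, 82.0 and 83.5 CPM (-0.55 ± 0.06; edgeR adjusted p = 9.71e-04). SORD, sorbitol dehydrogenase, and GART, a purine synthesis enzyme, fell by 0.56 and 0.40, and IMPDH2, of guanine nucleotide synthesis, which had no MYC peak, fell by 0.51. Of 60 tested mitochondrial ribosomal proteins 12 fell and 0 rose, MRPL36 by 0.53 and MRPL12 by 0.53 among them; without that library 33 were lower in DTMYC and 23 in parental cells. Both lists were set up with the role of MYC in view and are no independent evidence of direction.

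Cytosolic ribosomal proteins had the highest share of MYC, with peaks in both DMSO lists at 49 of 59 members (83.1%). Yet 0 of 57 tested passed the RNA-seq test in either direction, with a median of -0.17 in DTMYC and -0.13 in parental cells and a gene body median of -0.31. RPL3, for example, had 2224, 1998 and 2302 CPM in DMSO and 1950, 1925 and 1879 CPM in dTAG47, apart but within a log2 fold change of -0.18 ± 0.08 (edgeR adjusted p = 0.217). RPLP0 had 2409, 2072 and 2523 CPM, then 2182, 2127 and 2144 CPM, which overlap. The respiratory chain, with 56 of 61 genes open and 7 with MYC in both lists, also had 0 calls of 53 (median -0.09). Both counts of 0 rest on parental DMSO replicate 3: without it, 36 of 57 cytosolic ribosomal protein genes were lower in DTMYC cells and 20 in parental cells (medians -0.21 and -0.15), and 17 of 53 respiratory chain genes were lower in DTMYC and 30 in parental cells (medians -0.12 and -0.24). None was higher.

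Other lists held fewer called genes, to be read against 4.44% lower over all genes. In DNA replication 5 of 41 fell and 0 rose (MCM7 by 0.32, MCM4 by 0.27, MCM3 by 0.25, FEN1 by 0.27 and PCNA by 0.24), and in splicing factors 4 of 43 fell (HNRNPF by 0.31, PRPF19 by 0.30, PRPF4 by 0.28 and HNRNPC by 0.21). In the proteasome list 1 of 38 fell (the assembly chaperone PSMG1, by 0.38), a share below that of all genes, and the list's median was 0.03. Within the MYC network 16 of 21 genes had a member and 4 of 14 tested fell: MAX, the partner of MYC, from 50.2, 52.4 and 52.1 CPM to 42.6, 40.5 and 42.8 CPM (-0.30 ± 0.07; edgeR adjusted p = 0.0216), the ATPases RUVBL1 and RUVBL2 by 0.27 and 0.34, and MXI1, an antagonist of MYC, by 0.54. Immediate early genes had 1 higher (CTGF, by 0.34) and 1 lower (NR4A1, by 0.51) of 22. Collagens, laminins and integrins were open at 21 of 40, and LAMB2 and THBS1 rose among 16 tested (median 0.25). THBS1 had no more than 3.90 CPM in DTMYC cells. Calls for FEN1 and RUVBL1 were lost in 13 of 17 alternative fits, and those for MCM3 and HNRNPC in 12. The call for PCNA was lost in 11 and that for MCM4 in 8. Other called genes named from these lists lost theirs in 2 to 6 of 17. Without parental DMSO replicate 3, 13 replication genes, 18 splicing factors, 2 proteasome genes and 8 genes of the MYC network were lower in DTMYC cells and none was higher, 2 immediate early genes were higher and 6 lower, and 7 of the matrix genes were higher, where 16.6% of all genes were lower and 12.7% higher.

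SWI/SNF genes were open at 22 of 27, and 3 of these members had MYC in both lists. None of 19 tested passed in either direction in DTMYC cells (median 0.01), and 3 were lower without parental DMSO replicate 3, near the 16.6% of all genes in that fit. SMARCA4, the ATPase, had 491, 484 and 509 CPM in DMSO and 496, 479 and 447 CPM in dTAG47 (-0.06 ± 0.09), with overlap, and a member at chr19:11070937-11071955 with a lowest percentile of 59.6. ARID1A had 335, 332 and 344 CPM, then 394, 382 and 372 CPM (0.18 ± 0.11; edgeR adjusted p = 0.337), and its parental difference was 0.51 ± 0.11 (edgeR adjusted p = 0.0690). In parental cells with all libraries, of all lists only the immediate early genes held a called member gene, DUSP6, which rose. Without parental DMSO replicate 3, 10 of 19 SWI/SNF genes were higher and 0 lower in parental cells (median 0.23), where 9.17% of all genes were higher, and with replicate 2 left out instead 4 were higher.

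**Figure D5:**
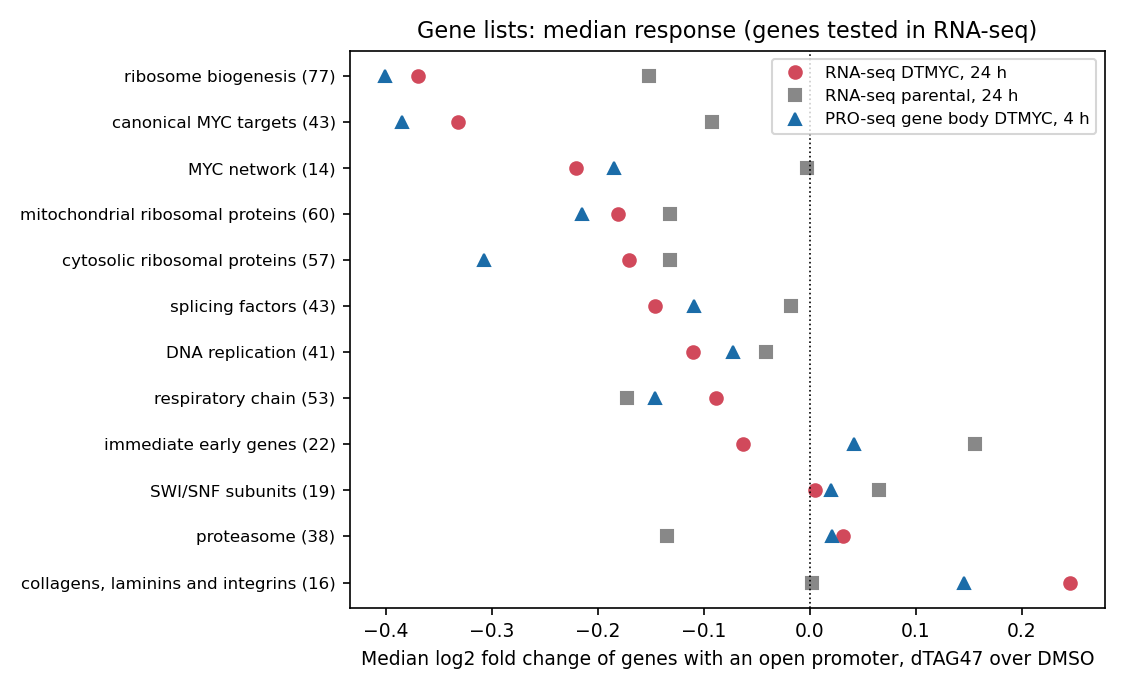
Median log2 fold change of dTAG47 over DMSO of the genes with an open promoter in 12 gene lists, for RNA-seq of DTMYC cells, RNA-seq of parental cells and PRO-seq gene body counts of DTMYC cells; numbers in brackets are genes tested in RNA-seq. Ribosome biogenesis and MYC targets have the lowest DTMYC medians, -0.37 and -0.33, and collagens, laminins and integrins the highest, 0.25.

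Total counts per library were 27854207 to 54633745 for RNA-seq, 18209879 to 23256313 for PRO-seq gene bodies and 1216928 to 1632084 for promoter-proximal PRO-seq. Promoter-proximal totals were the lowest.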

How the data were processed

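Samples were grouped by the treatment and cell line in their labels. The deposited ATAC-seq and MYC ChIP-seq peak lists carry the authors' score per peak, used only within a list; the scale of that score and whether replicates were pooled for calling are stated by no label or header. RNA-seq and PRO-seq came as counts per gene deposited by the authors, for PRO-seq split into promoter-proximal and gene body. The submitters' processing notes name hg19, Bowtie2, MACS2, STAR, cutadapt, featureCounts, DiffBind and DESeq2, without roles.

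Peaks sharing at least 1 base were merged with Python 3.11.15 and pandas 2.3.3. A region's score in a library is that of its highest peak there. Genes were linked to members by start site and, for RNA-seq, by symbol (76.2% of PRO-seq entries). Counts were tested with edgeR 4.0.16 (R 4.3.3): filterByExpr, TMM, the quasi-likelihood test, two-sided, with Benjamini-Hochberg adjustment over all genes tested at a threshold of 0.05. RNA-seq used 1 fit over 12 libraries and PRO-seq 1 fit over 4 for each kind of count. DESeq2 1.42.0, other scaling, no filter, a replicate block and leaving out libraries were alternatives. The scripts were tested on simulated data. PRO-seq levels and ratios that compare members with partial promoters used genes with a span of at least 2 kb. Ratios also needed at least 20 gene body counts and a promoter-proximal count. RNA levels per kb had no limit on span. Sequences came from GRCh37, which is hg19, and annotation from GENCODE v44 lifted to it.

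Named members were the top ones by ATAC-seq percentile, width, MYC score and transcription. For each RNA-seq contrast they include up to 6 called rises and 6 falls of the largest size. These needed at least 5 CPM on average over the 12 libraries and groups that did not overlap. Separation of the groups at these genes is therefore no result, and genes low in DTMYC cells could pass through parental cells. Members and gene lists were chosen with earlier results of these data known. Some genes that this rule names are not reported here.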

Additional observations from a re-analysis of the deposited data

Results flagged for a closer look

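The response to dTAG47 differed between DTMYC and parental cells for 40 member genes that were higher and 52 that were lower in DTMYC, by the test of the difference itself. These were 0.466% and 0.606% of member genes, where 0.597% and 0.59% of all genes were called. The named ones with a higher response were C7orf60, with a difference of 1.20 on the log2 scale, TM7SF2 with 1.07, CYS1 with 1.05, PLEKHA2 with 1.03, SNX10 with 1.02 and NUCB2 with 1.00. Those with a lower response were NR1D1 with -0.91, FOSL1 with -0.85, PPARGC1B with -0.85, FABP5 with -0.84, AKAP1 with -0.80 and USP36 with -0.80. PPARGC1B and USP36 had MYC peaks in both DMSO lists, and NR1D1, FOSL1, FABP5 and AKAP1 in 1. None of the 6 with a higher response had one. Calls were lost in 12 of 16 alternative fits for NR1D1 and FOSL1, and in 11 for C7orf60. For CYS1, SNX10 and NUCB2 this was so in 9, and for FABP5 in 8. TM7SF2, PLEKHA2, AKAP1 and USP36 lost the call in 1 and PPARGC1B in 0. No group had more than 3 samples, so the rule for a single outlying sample, which needs 4 or more, was not applied. Without parental DMSO replicate 3 the counts of 40 and 52 became 740 and 1003 (8.61% and 11.7%, where 8.30% and 9.58% of all genes were called).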

How the results depend on the processing

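The number of members stayed within 1.5 times under every alternative, from 7725 with scores of at least 50 to 9424 with 1 library left out. With MYC peak scores of at least 50, MYC shares became 17.4% and 6.04% in the DMSO lists and 1.80% and 0.619% in dTAG47 lists 1 and 3, and with 1 DMSO list instead of both the share of 8.78% became 10.7 to 26.1%. Leaving out 1 RNA-seq library in turn gave 81 to 1154 higher and 110 to 1674 lower member genes in DTMYC cells, 0 to 896 and 0 to 1052 in parental cells, and 0 to 740 and 1 to 1003 for the difference of responses. As shares these were 0.941 to 13.4% and 1.28 to 19.5% in DTMYC cells, where 1.20 to 12.7% and 1.22 to 16.6% of all genes were called. In parental cells they were 0 to 10.4% and 0 to 12.2%, where 0 to 9.17% and 0 to 10.9% of all were. For the difference they were 0 to 8.61% and 0.0116 to 11.7%, where 0.00739 to 8.30% and 0.0296 to 9.58% of all were. For genes with MYC in both lists the ranges were 1 to 31 higher and 42 to 431 lower in DTMYC and 0 to 29 and 1 to 236 for the difference; all these highest values are without parental DMSO replicate 3, and the next highest for parental cells and the difference without parental DMSO replicate 2. With only the 6 libraries of the line, the counts were 1457 higher and 1903 lower in DTMYC cells (42 and 476 with MYC in both lists). These were 17.3% and 22.6% of member genes, where 16.5% and 19.9% of all genes were called. In parental cells that setting gave 0 and 0, and 0% of all genes. Without a filter on low counts 212 were higher in DTMYC cells (3 with MYC in both lists), which is 2.35%, where 2.20% of all genes were. Parental cells had 6 and 4 (0.0664% and 0.0443%, where 0.0501% and 0.0278% of all were called). For the difference 30 were lower (0.332%, where 0.278% of all were), with 0 higher and 10 lower with MYC in both lists. DESeq2 size factors gave 4 higher with MYC in both lists in DTMYC cells, where 3.67% of all genes were higher. They gave 3 and 0 in parental cells (0.035% and 0%, where 0.0448% and 0.00746% of all were called). For the difference they gave 20 and 11 (0.233% and 0.128%, where 0.284% and 0.187% of all were), with 4 lower with MYC in both lists. The DESeq2 test gave 103 and 121 in parental cells (1.20% and 1.41%, where 1.22% and 1.02% of all were called). For the difference it gave 221 and 171 (2.58% and 1.99%, where 2.46% and 1.89% of all were), of which 4 and 46 had MYC in both lists. With midpoints within 500 bases 6 parental genes were higher (0.0766%, where 0.104% of all were). For PRO-seq, leaving out 1 library gave 0 to 5 higher and 3 to 33 lower for gene bodies and 0 to 1 and 0 to 2 for promoter-proximal counts. For gene bodies these were up to 0.0525% and 0.347%, where up to 0.0438% and 0.277% of all genes were called. For promoter-proximal counts they were up to 0.0114% and 0.0228%, where up to 0.0289% and 0.0193% of all were. DESeq2 gave 4 and 54 (0.0423% and 0.571%, where 0.0448% and 0.463% of all were called), and 1 and 1. Fits without a filter gave 2 lower (0.02%, where 0.0113% of all were), and 1 and 1 (0.0104% each, where 0.00689% of all were called in each direction). The cause of these moves was not tested.

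Replicate numbers did not pair the RNA-seq samples (correlations of same-numbered deviations from -0.20 to 0.37), and with 2 pairs the PRO-seq correlations were 0.64 and 0.35. Fits with a replicate block gave 2 and 0 in parental cells (0.0233% and 0%, where 0.02985% and 0.00746% of all genes were called). For the difference they gave 24 and 15 (0.28% and 0.175%, where 0.366% and 0.224% of all were), of which 0 and 4 had MYC in both lists. They gave 1726 and 1760 for gene bodies (18.3% and 18.6%, where 16.6% and 15.9% of all genes were called) and 76 and 142 for promoter-proximal counts (0.872% and 1.63%, where 0.909% and 1.65% of all were). With MYC in both lists the gene body and promoter-proximal counts were 46 and 517 of 939 and 3 and 53 of 934. Over all named genes 900 alternative values kept their side of the threshold, 312 lost the call, 45 gained it and 0 changed sign.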
